A study of Mus musculus with 4 samples.

Results

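The 10 genes described here, Marco, Chil3, Ear1, Ear2, Mrc1, Krt79, Atp6v0d2, Plet1, Cidec and Fabp1, are known for high expression in alveolar macrophages of the mouse, and they were taken by symbol from a table of read counts for 56748 genes. The table came from bulk RNA sequencing of lungs carrying metastases of 4T1-FLuc, a mouse triple-negative breast cancer line that makes firefly luciferase, injected into the tail vein of 7-week-old female BALB/cJ mice. The saline group (2 libraries, labelled PBS control) received saline. The cmLumiOpto/PARPi group (2 libraries, labelled cmLumi-Olap) received the cmLumiOpto gene in an adeno-associated virus packed in exosomes with a CD276 antibody, the luciferase substrate ViviRen at 2 mg/kg and olaparib, which inhibits PARP, at 50 mg/kg, and material was taken after 3 weeks. The labels call it 4T1 tumour cells, while the study's methods describe dissociated lung tissue. Sftpc, the surfactant gene of alveolar type 2 cells, had between 2585 and 106882 counts per library, so lung cells were present in all 4. Gene counts summed to between 15263375 and 16755228 per library, and 3 counts, taken as the limit that a count of 0 allows, equal 0.173 to 0.204 CPM (counts scaled to a common library size with TMM factors). This limit covers counting error only.

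Alveolar macrophages are long-lived phagocytes of the airspace that take up inhaled particles and used surfactant. They mature under the cytokine GM-CSF, which induces the lipid-sensing transcription factor PPAR-gamma, and their genes reflect scavenging, lipid storage and lysosomal breakdown. Marco and Mrc1 encode receptors that bind microbes, particles and glycoproteins. Chil3 encodes the secreted chitinase-like protein Ym1, and Ear1 and Ear2 encode secreted ribonucleases. Atp6v0d2 encodes a subunit of the lysosomal proton pump, Cidec a lipid droplet protein, Fabp1 a fatty acid carrier, Plet1 a surface glycoprotein and Krt79 a keratin. Several of these genes are not restricted to the cell type, since Mrc1 is also made by other macrophages and lymphatic endothelium, Chil3 by monocytes and neutrophil precursors, and the Ear genes by eosinophils.

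Ear1 and Ear2 are related copies, and the bases before their starts are shown because they are nearly identical, although these bases are not part of the counted messages. Both lie on chromosome 14 of GRCm38, Ear1 (ENSMUSG00000072601) from 43818765 to 43875517 on the minus strand and Ear2 (ENSMUSG00000072596) from 44102654 to 44103534 on the plus strand. The 250 bases before each RefSeq start (GRCm38.p6) are given with capitals at the bases that differ in the alignment of the pair. The Ear1 window, chr14:43819640-43819889 on the minus strand, is inside the intron of a longer GENCODE transcript of that gene, while the Ear2 window is chr14:44102404-44102653 on the plus strand.
Ear1: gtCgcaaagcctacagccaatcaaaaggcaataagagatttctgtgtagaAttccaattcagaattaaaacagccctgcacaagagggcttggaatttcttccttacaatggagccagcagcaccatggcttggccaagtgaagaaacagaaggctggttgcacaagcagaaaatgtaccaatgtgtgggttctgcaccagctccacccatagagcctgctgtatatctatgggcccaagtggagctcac
Ear2: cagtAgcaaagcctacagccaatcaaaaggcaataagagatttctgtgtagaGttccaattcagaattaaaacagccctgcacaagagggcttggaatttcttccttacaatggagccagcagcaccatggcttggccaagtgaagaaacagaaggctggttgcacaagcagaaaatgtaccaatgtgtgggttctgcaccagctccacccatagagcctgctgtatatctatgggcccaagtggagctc
Of 248 aligned bases 246 were identical (99.2%), with 0 gaps inside the alignment. For the messages, exact stretches shared with any other gene were counted, a measure that cannot be set against this identity. In the longest coding transcript of Ear1 57.4% of all stretches of 50 bases also occurred in another annotated gene, and 23.9% of stretches of 100 bases did. Most were in the pseudogene Ear-ps9, which overlaps the Ear1 gene on the same strand. For Ear2 the shares were 41.5% and 13.9%, mostly in Ear10, and no stretch of 100 bases was common to Ear1 and Ear2. Chil3 shared 29.4% of its stretches of 50 bases and 5.42% of those of 100 bases, with Chil4 and Gm6522. Ear-ps9 and Ear10 had 0 counts in all 4 libraries. Reads of Ear1, Ear2 and Chil3 could still have been assigned to another copy or left uncounted. Their levels are less certain than those of Mrc1, Marco, Atp6v0d2, Cidec, Krt79 and Fabp1, which shared 0 such stretches.

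The receptor genes Mrc1 and Marco are shown by their starts too, because both windows hold the letters GAGGAAG, a core bound by the macrophage transcription factor PU.1. Capitals mark those letters or their reverse complement. The Mrc1 window is chr2:14229164-14229413 on the plus strand and the Marco window is chr1:120505025-120505274 on the minus strand (GRCm38.p6, RefSeq starts).
Mrc1: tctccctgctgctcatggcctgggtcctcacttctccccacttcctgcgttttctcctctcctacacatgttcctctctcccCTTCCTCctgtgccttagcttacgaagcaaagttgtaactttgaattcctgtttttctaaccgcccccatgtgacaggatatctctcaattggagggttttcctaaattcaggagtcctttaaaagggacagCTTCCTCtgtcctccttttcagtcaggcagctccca
Marco: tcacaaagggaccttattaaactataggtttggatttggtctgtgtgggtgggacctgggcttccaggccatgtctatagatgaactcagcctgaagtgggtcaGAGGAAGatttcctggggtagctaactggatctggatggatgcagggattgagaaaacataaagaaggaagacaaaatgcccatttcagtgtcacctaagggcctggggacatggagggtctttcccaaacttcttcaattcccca
RefSeq windows were found for 9 of the 10 genes, and Cidec had more than a single start, which gave 10 windows. GAGGAAG on either strand was in 3 of these 10 (Mrc1, Marco and Fabp1) and in 10.6% of all 32851 windows of the same length. AGGTCA, the core bound by PPAR-gamma and other nuclear receptors, was in 2 (Fabp1 and Plet1) against 14.0% of all windows, and CACGTG, the E-box bound by Bhlhe40 and Bhlhe41, was in 0 against 6.02%. These are matches of letters, and binding was not measured.

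Levels within the set spanned several orders of magnitude and were held by Chil3, Mrc1 and Plet1. On the scale of CPM per kilobase of gene length, averaged over the 4 libraries, Chil3 stood at 113 (range 46.7 to 259), Mrc1 at 35.3 (21.5 to 62.2) and Plet1 at 34.1 (25.2 to 51.9). Ear2 followed at 14.4 (8.53 to 26.9), Atp6v0d2 at 4.53 (2.36 to 8.46) and Ear1 at 3.11 (1.77 to 5.20). Marco at 0.414 (0.0299 to 0.969), Fabp1 at 0.364 (0 to 1.46), Cidec at 0.209 (0.0367 to 0.434) and Krt79 at 0.0662 (0.0143 to 0.139) closed the order. The ranges of neighbours in this order overlapped except between Ear2 and Atp6v0d2 and between Ear1 and Marco. Chil3 exceeded 97.1% of the 15167 tested genes by this measure and Mrc1 89.6%, while Marco exceeded 8.68%.

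The question put to the data was whether the level of these genes differed between cmLumiOpto/PARPi and saline lungs. None of the 7 genes with enough counts to be tested had an adjusted p under 0.05 in edgeR's quasi-likelihood test, where 0% of all 15167 tested genes did. At an unadjusted p under 0.05 in that test, 2 of the 7 were higher after treatment (Atp6v0d2 and Ear2), against 9.21% of all tested genes, and 1 was lower (Mrc1), against 12.0%. DESeq2 and edgeR's likelihood ratio test each called 2, Atp6v0d2 higher and Mrc1 lower. DESeq2 called 2.48% of the genes it gave an adjusted p higher and 5.23% lower, and the likelihood ratio test called 2.27% and 3.44% of all tested genes. Without a filter on low counts edgeR called 2 of the 10 higher (Atp6v0d2 and Ear2) and 2 lower (Mrc1 and Chil3), beside 3.67% and 4.19% of all genes then tested. With the replicate number as a block it called 1 of the 7 higher (Atp6v0d2) and 2 lower (Mrc1 and Chil3), beside 4.96% and 7.05%. The treated libraries were both above the saline ones in 3 of the 7 (Ear1, Ear2 and Atp6v0d2), against 27.4% of all tested genes, and below them in 1 (Mrc1), against 27.8%. No test was made of these counts against the background shares. Krt79, Cidec and Fabp1 were too low to be tested. The median log2 fold change of the 7 was 0.60, beside 0.02 over all tested genes. That median was the value of Marco, which had 6, 13, 1 and 31 counts and a standard error of 1.26. Of the 7 values, 4 were positive and 3 negative. With 2 libraries against 2, an exact permutation test cannot give a two-sided p below 0.333. In bulk tissue, fewer cells of a type and less RNA per cell cannot be told apart.

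**Figure D1:**
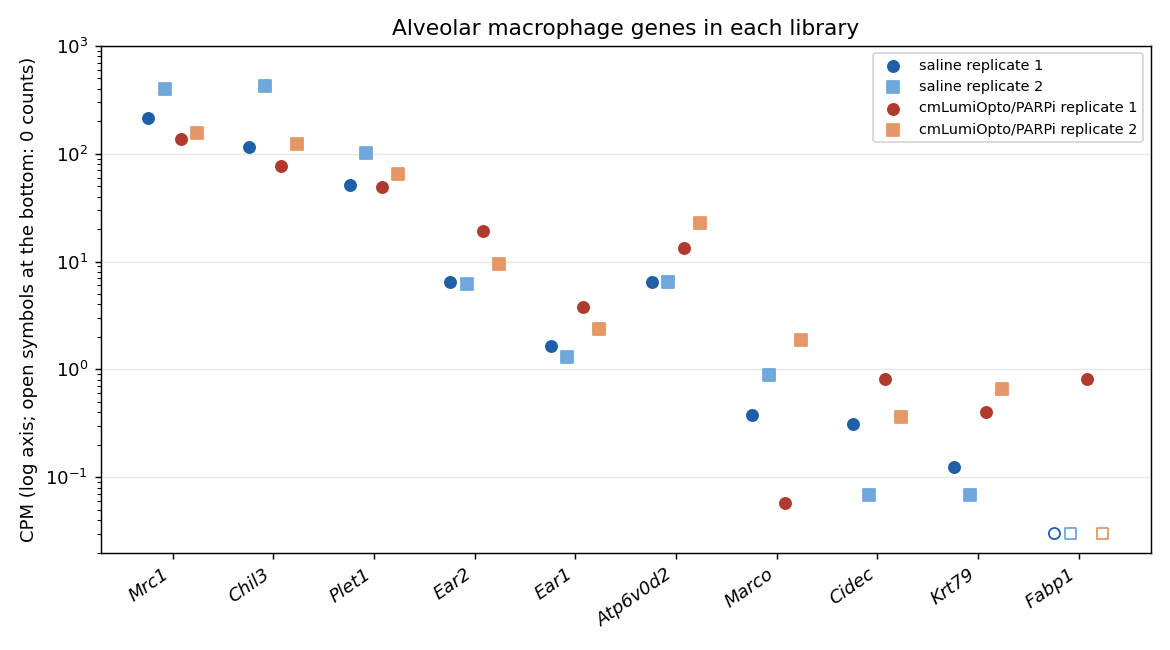
Level of each of the 10 genes in each library, in CPM on a log axis; each point is a library, circles are replicate 1, squares replicate 2, and open symbols at the bottom are counts of 0. Mrc1, Chil3 and Plet1 are highest in saline replicate 2, at 396, 423 and 101 CPM, while Ear1, Ear2, Atp6v0d2, Cidec and Krt79 are higher in both treated libraries than in both saline libraries.

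The 10 genes did not follow a common order of the libraries. Saline replicate 2 held the highest level of 3 genes, cmLumiOpto/PARPi replicate 1 of 4, cmLumiOpto/PARPi replicate 2 of 3 and saline replicate 1 of 0. Summed over the set, CPM was 395 and 935 in saline and 301 and 380 after treatment. Chil3, Mrc1 and Plet1 supplied between 87.2% and 98.4% of the set's reads. The other 7 genes summed to 15.4 and 14.9 CPM in saline and to 38.6 and 37.7 CPM after treatment, the opposite order. Most of this second sum was Ear2 (6.46 and 6.13 against 19.3 and 9.45 CPM) and Atp6v0d2 (6.46 and 6.41 against 13.4 and 23.0 CPM). The 3 genes set apart were also the 3 with a negative log2 fold change, so the opposite order is partly built into the split. A sum over the set thus reads as a level of its 3 abundant genes, and the genes are described singly.

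Mrc1, the mannose receptor CD206, on chromosome 2 from 14229392 to 14332057 (ENSMUSG00000026712), had 212 and 396 CPM in the saline libraries and 137 and 154 CPM in the cmLumiOpto/PARPi libraries. Both treated libraries lay below both saline libraries, and the saline libraries were 1.86-fold apart. The group means were 304 ± 130 CPM (SD, n = 2) in saline and 146 ± 12.1 CPM (SD, n = 2) after treatment, with a fitted log2 change of -1.06 (standard error 0.30, adjusted p = 0.158 in edgeR's quasi-likelihood test). Without saline replicate 2 the log2 fold change was -0.56 (adjusted p = 0.446 in the same test).

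Marco, the scavenger receptor that is a defining alveolar macrophage gene, on chromosome 1 from 120474538 to 120505024 (ENSMUSG00000026390), counted 6 and 13 reads in saline and 1 and 31 after treatment. The exact Poisson 95% intervals of the treated pair, 0.0253 to 5.57 and 21.1 to 44.0 counts, did not overlap, so the treated libraries differed from each other by more than counting error. The groups overlapped, with a log2 change of 0.60 (with standard error 1.26, adjusted p = 0.810 in edgeR's quasi-likelihood test), and this value became -3.30 when cmLumiOpto/PARPi replicate 2 was left out. Of 11 tested scavenger and lectin receptor genes outside the set, 1 (Msr1) was higher in both treated libraries and 3 were lower, beside 27.4% and 27.8% of all tested genes, and 2 of those 3, Stab1 and Cd163, had an unadjusted p under 0.05 in edgeR's test. Cd163, the haemoglobin scavenger receptor, had 13.2 and 54.7 CPM in saline and 6.68 and 11.9 CPM after treatment, highest in saline replicate 2 as Mrc1 was.

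Chil3, on chromosome 3 from 106147554 to 106167564 (ENSMUSG00000040809), had 116 and 423 CPM in saline and 76.2 and 124 CPM after treatment. Saline replicate 2 stood 3.65-fold above saline replicate 1, and only 0.732% of the tested genes had a wider gap between the saline libraries (log2 scale, pseudocount 0.5 CPM). Treated replicate 2 lay above saline replicate 1, so the groups overlapped. The means were 269 ± 217 CPM (SD, n = 2) and 99.9 ± 33.5 CPM (SD, n = 2), with a fitted log2 change of -1.43 (standard error 0.59, adjusted p = 0.243 in edgeR's quasi-likelihood test). Without saline replicate 2 it was -0.23 (adjusted p = 0.816 in the same test). Its closest relative Chil4 had 0, 0, 0 and 1 counts. Chil1, a chitinase-like protein made by epithelium and macrophages, pointed the other way, with 67.5 and 17 CPM in saline and 241 and 91.1 CPM after treatment (log2 fold change 1.97, standard error 0.72, adjusted p = 0.208 in edgeR's quasi-likelihood test).

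Plet1, on chromosome 9 from 50494525 to 50505482 (ENSMUSG00000032068), had 51.2 and 101 CPM in saline and 49.0 and 64.4 CPM after treatment. The groups overlapped, and the log2 fold change was -0.42 (standard error 0.33, adjusted p = 0.493 in edgeR's quasi-likelihood test). It turned to 0.13 without saline replicate 2. The antisense gene Plet1os covers Plet1 on the other strand and had 26 and 51 counts in saline and 13 and 21 after treatment, also highest in saline replicate 2. Whether the counting used strand is not given in the sources used here, so reads of the pair cannot be told apart.

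Atp6v0d2, on chromosome 4 from 19876841 to 19922605 (ENSMUSG00000028238), showed the smallest p of the set. The counts were 103 and 94 in saline and 232 and 382 after treatment, or 6.46 and 6.41 CPM against 13.4 and 23.0 CPM. Both treated libraries were higher, and the 95% Poisson intervals of the saline counts overlapped. The means were 6.43 ± 0.0381 CPM (SD, n = 2) and 18.2 ± 6.81 CPM (SD, n = 2), with a fitted log2 change of 1.5 (standard error 0.32, adjusted p = 0.138 in edgeR's quasi-likelihood test, the smallest value reached by any gene and shared by 558). It remained between 1.03 and 1.84 with each library left out in turn. Atp6v0d1, the form of this subunit found in most cells, had 119 and 125 CPM in saline and 117 and 143 CPM after treatment, with overlapping groups (log2 fold change 0.09).

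The proton pump acidifies lysosomes, and its other subunits were counted from a list of 21 genes. In 13 of the 21 the treated pair was above the saline pair and in 0 below it, beside 27.4% and 27.8% of all tested genes. None had an adjusted p under 0.05 in edgeR's quasi-likelihood test, 8 had an unadjusted p under 0.05, all higher (9.21% of all tested genes), and the median log2 fold change was 0.26. Atp6v0b, a subunit of the membrane ring, had 51.2 and 54.3 CPM in saline and 117 and 87.7 CPM after treatment (log2 fold change 0.95, standard error 0.18, adjusted p = 0.138 in that test). Atp6v1f, of the catalytic part, had 84.2 and 71.7 CPM against 128 and 124 CPM (log2 fold change 0.70, standard error 0.14, adjusted p = 0.138 in that test).

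Ear2 counts were 103 and 90 in saline and 336 and 157 after treatment, and Ear1 had 26 and 19 against 66 and 39. For both genes the treated libraries were higher and replicate 1 was the highest. In CPM, Ear2 averaged 6.30 ± 0.231 (SD, n = 2) in saline and 14.4 ± 7.0 (SD, n = 2) after treatment, with a fitted log2 change of 1.19 (standard error 0.39, adjusted p = 0.182 in edgeR's quasi-likelihood test). Ear1 averaged 1.46 ± 0.237 (SD, n = 2) and 3.07 ± 1.03 (SD, n = 2), with a fitted log2 change of 1.07 (standard error 0.47, adjusted p = 0.259 in the same test). The ratio of Ear2 to Ear1 counts was between 3.96 and 5.09 in the 4 libraries, with 19 to 66 counts of Ear1. The transcripts of both genes had 158 stretches of 50 bases in common, and the part of shared reads in this ratio was not tested. Without cmLumiOpto/PARPi replicate 1 the log2 fold change of Ear2 was 0.58.

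Eosinophils also make these ribonucleases, and their granule genes were at or near 0. Epx and Prg3 had 0 counts in all 4 libraries, Prg2 had 3, 0, 2 and 4, and Il5ra had 0, 0, 0 and 1. The receptor gene Ccr3 had 1 and 1 counts in saline and 5 and 8 after treatment, and Siglecf, which eosinophils share with alveolar macrophages, is given with the latter. The part of eosinophils in the Ear values was not tested. The 6 eosinophil genes summed to between 0.409 and 2.48 CPM per library, with 2.13 CPM in saline replicate 1. Of the family outside the set, Ear6, Ear10 and Ear14 had 0 counts in all libraries, and Rnase4, a ribonuclease of many tissues, was higher in both treated libraries (67.5 and 70.5 CPM against 108 and 77.5 CPM, log2 fold change 0.43). Rnase2a, which is listed under the older name Ear11 and was looked at after its values were seen, went its own way, with 17.8 and 45.6 CPM in saline and 5.41 and 28.9 CPM after treatment.

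Cidec, Krt79 and Fabp1 rested on so few counts that only the counts are given. Cidec, on chromosome 6 from 113424634 to 113435760 (ENSMUSG00000030278), had 5 and 1 counts in saline and 14 and 6 after treatment. Krt79, on chromosome 15 from 101929332 to 101940324 (ENSMUSG00000061397), had 2 and 1 against 7 and 11. For both genes the treated libraries were higher, but the 95% Poisson intervals of the nearest pair overlapped, at 1.62 to 11.7 and 2.20 to 13.1 counts for Cidec and at 0.242 to 7.22 and 2.81 to 14.4 counts for Krt79. Fabp1, on chromosome 6 from 71199827 to 71205023 (ENSMUSG00000054422), had 14 counts in cmLumiOpto/PARPi replicate 1 and 0 in the other libraries. Fabp1 is also a liver gene, and the 7 hepatocyte genes summed to between 0.241 and 0.750 CPM per library, with Alb at 3, 1, 0 and 0 counts. Krt79 is a skin keratin as well. Among 5 tested keratinocyte genes, Krt10 and Krt17 were higher in both treated libraries and Krt14 was lower in both. Over all tested genes the shares higher and lower in both were 27.4% and 27.8%. Krt1, not tested, had 1, 0, 0 and 0 counts.

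**Figure D2:**
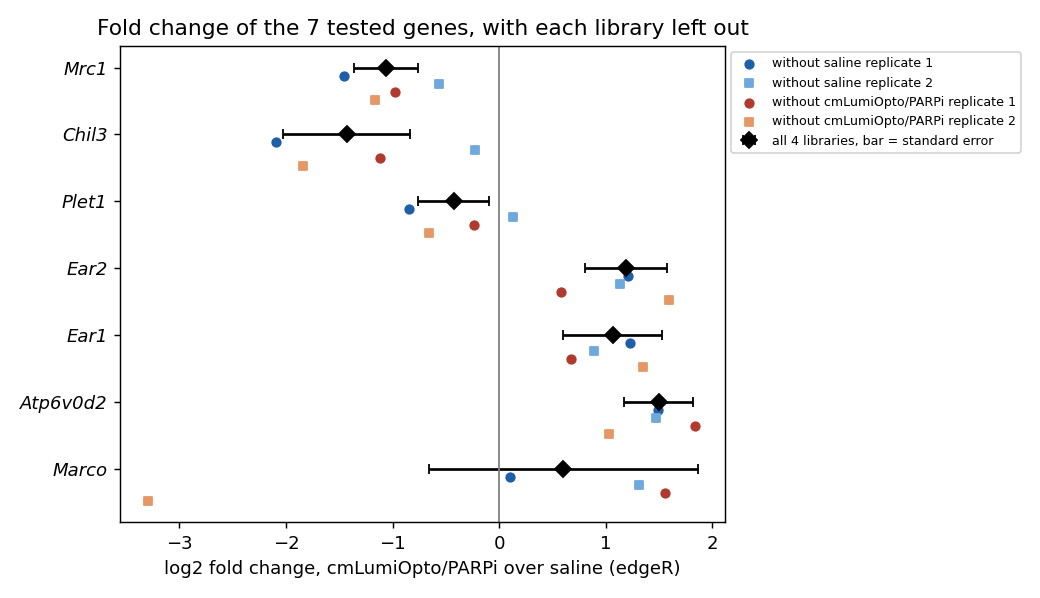
Log2 fold change of the 7 tested genes, cmLumiOpto/PARPi over saline; diamonds use all 4 libraries with the standard error as bar, and coloured points leave out the library named. Atp6v0d2, Ear1 and Ear2 stay above 0 and Mrc1 and Chil3 below 0 with each library left out, while Plet1 and Marco change sign.

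Genes around the set were described from lists chosen with earlier results of these data known. Of 12 other alveolar macrophage genes, 10 were tested and 0 had an adjusted p under 0.05 in edgeR's quasi-likelihood test. Both treated libraries were higher for 2 of the 10, the protease gene Ctsk and the carbonic anhydrase gene Car4, and lower for 1, Bhlhe41, beside 27.4% and 27.8% of all tested genes, and these 3 were also the genes with an unadjusted p under 0.05. Ctsk had 11 and 6.88 CPM in saline and 20.4 and 56.9 CPM after treatment (log2 fold change 2.11, standard error 0.52, adjusted p = 0.142 in that test), highest in the same library as Atp6v0d2. Car4, which endothelium also makes, had 7.59 and 7.29 CPM against 28.7 and 13.4 CPM (log2 fold change 1.5, adjusted p = 0.145 in that test), highest in the same library as Ear1 and Ear2. The surface lectin Siglecf, by which alveolar macrophages are sorted, had 30, 5, 36 and 25 counts, and Pparg had 32, 41, 45 and 30. Siglecf and Marco were both scarce in these libraries, whereas Cd68, a lysosomal protein of all macrophages, had between 1113 and 1804 counts. The name of the set is thus carried by few counts of its defining genes.

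The genes of the GM-CSF and PPAR-gamma axis, which sustains alveolar macrophages, gave 14 tested genes, of which 0 had an adjusted p under 0.05 in edgeR's quasi-likelihood test. Both treated libraries were lower for 6 of the 14 and higher for 1 (Spi1, encoding PU.1), beside 27.8% and 27.4% of all tested genes. An unadjusted p under 0.05 in that test was found for 5, all lower, beside 12.0% of all tested genes. These were Bhlhe41, Rxra, Csf2rb2, Csf2rb and Bhlhe40. The groups overlapped for 7, among them Pparg (log2 fold change -0.12), Stat5a (0.03) and Stat5b (-0.05). Bhlhe41, a repressor required for alveolar macrophage identity, had 86.4 and 76.5 CPM in saline and 39.8 and 52.7 CPM after treatment (log2 fold change -0.82, standard error 0.18, adjusted p = 0.138 in that test). Csf2rb, the shared receptor chain for GM-CSF, had 118 and 103 CPM against 76.2 and 88.7 CPM (log2 fold change -0.43), while the ligand-specific chain Csf2ra overlapped between groups (log2 fold change 0.01). Csf2 itself, the ligand, had 31, 19, 24 and 39 counts.

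Of 14 tested genes of surfactant and lipid handling 5 were higher and 1 (Npc1) was lower in both treated libraries, beside 27.4% and 27.8% of all tested genes. In edgeR's quasi-likelihood test 4 had an unadjusted p under 0.05, all higher, beside 9.21% of all tested genes, and 0 an adjusted one. The median log2 fold change was 0.58. Plin2, which coats lipid droplets, had 115 and 155 CPM in saline and 207 and 332 CPM after treatment (log2 fold change 1.00, standard error 0.27, adjusted p = 0.151 in that test). Npc2, which exports cholesterol from lysosomes and is abundant in type 2 cells, had 642 and 573 CPM against 1153 and 879 CPM (log2 fold change 0.74). Fabp5, a relative of Fabp1, had 53.1 and 38 CPM against 73.4 and 86.9 CPM (log2 fold change 0.81), while Fabp4, a known alveolar macrophage gene, overlapped between groups, and Fabp2 and Fabp6 had 0 counts. Of 9 genes of the Cidec and perilipin families 3 were tested, and Plin2 and Fitm2 of these were higher in both treated libraries.

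Mrc1 and Chil3 are widely used, with Retnla and Arg1, as marks of alternative macrophage activation. Of 11 tested genes outside the set, both treated libraries were higher for 5 and lower for 2 (Il4ra and Stat6), beside 27.4% and 27.8% of all tested genes. In edgeR's quasi-likelihood test 5 had an unadjusted p under 0.05, all higher, beside 9.21% of all tested genes, and 0 an adjusted one. Retnla, a secreted protein also made by airway epithelium, had 166 and 7 counts in saline and 1785 and 1189 after treatment (log2 fold change 3.98, standard error 1.01, adjusted p = 0.145 in that test). It was lowest in saline replicate 2, the library in which Mrc1 and Chil3 were highest. Mgl2, a galactose lectin of macrophages and dendritic cells, had 5.83 and 2.11 CPM against 24.4 and 9.99 CPM (log2 fold change 2.11), while Arg1 had 7885 and 9837 counts in saline and 4148 and 11325 after treatment, with overlapping groups.

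**Figure D3:**
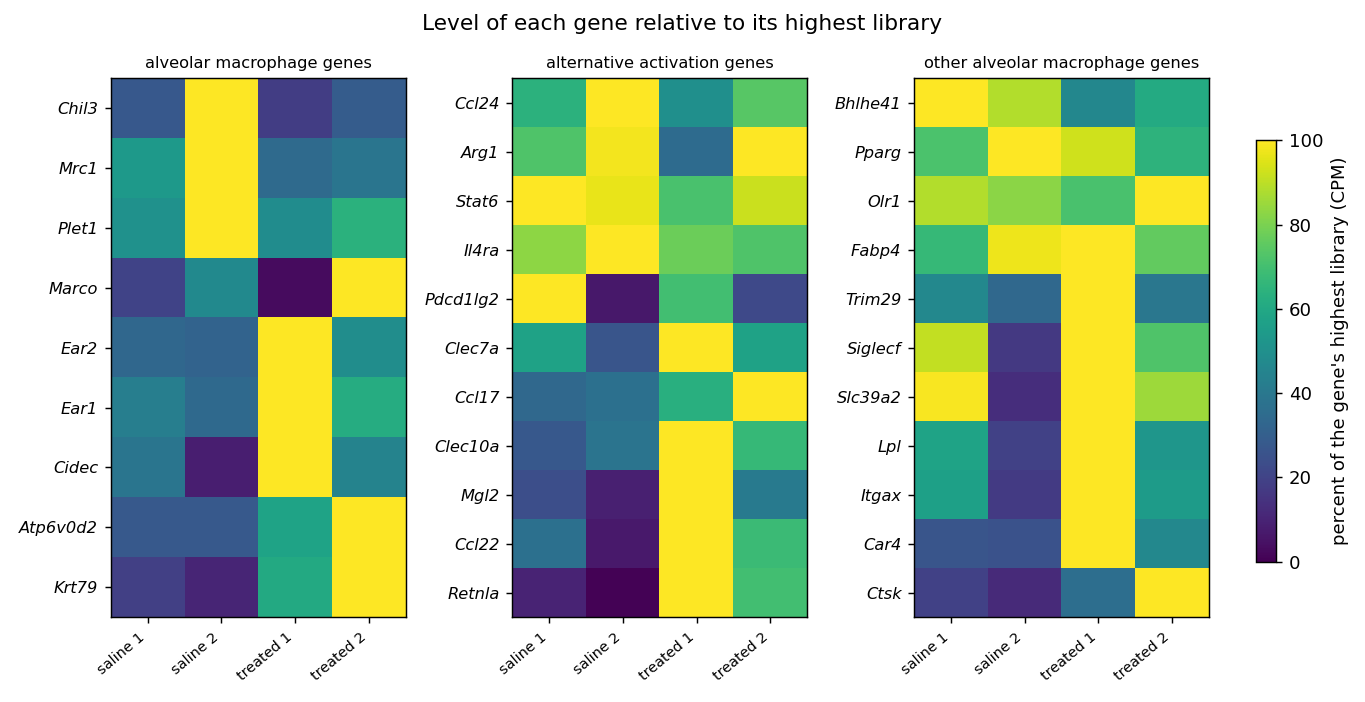
CPM of each gene in each library as a percentage of the gene's highest library, for the set, for alternative activation genes and for other alveolar macrophage genes; rows are genes with at least 20 counts in total, columns are libraries. Chil3, Mrc1 and Plet1 are brightest in saline replicate 2, where Retnla, Mgl2, Itgax and Siglecf are darkest. Ccl24, Il4ra and Pparg from the other lists are brightest there too.

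Of 12 tested genes found in macrophages generally 3 were higher in both treated libraries and 1 (Mertk) lower, beside 27.4% and 27.8% of all tested genes. The remaining 8 overlapped between groups, and the median log2 fold change of the 12 was 0.13. The summed CPM of the list was 3677 and 2751 in saline and 5665 and 4417 after treatment. Lyz2, which type 2 cells also make, was the highest of them in every library, at 1693 and 1141 CPM against 3619 and 2441 CPM. Most of the group difference in the sum was thus Lyz2. Cd68 had 81.0 and 75.8 CPM against 96.5 and 109 CPM (log2 fold change 0.39), while Csf1r, the CSF1 receptor, overlapped between groups (log2 fold change -0.24). Relative to Cd68, a ratio chosen after the values were seen, Mrc1 stood at 262% and 522% in saline and at 142% and 142% after treatment. Chil3, at 143% and 558% against 79.0% and 114%, and Plet1, at 63.3% and 133% against 50.8% and 59.3%, were also lower in both treated libraries by this ratio. In CPM both genes overlapped between groups, and Cd68 itself was higher in both treated libraries, which lowers any ratio to it there. Atp6v0d2 stood at 7.98% and 8.45% of Cd68 against 13.8% and 21.2%. Ear2 stood at 7.98% and 8.09% against 20.05% and 8.70%. Relative to Csf1r, Mrc1 overlapped between groups, at 69.4% and 249% against 63.7% and 86.2%, as did Chil3 and Plet1. Ear2, at 2.11% and 3.86% of Csf1r against 8.97% and 5.27%, was higher in both treated libraries, as were Ear1 and Atp6v0d2. The share of all tested genes that separate by these ratios was not computed, so no result is read from them.

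Airway and alveolar epithelial marker lists had higher sums in both treated libraries, while 0 of their genes had an adjusted p under 0.05 in edgeR's quasi-likelihood test. The 9 airway genes summed to 1160 and 86.2 CPM in saline, far apart, and to 5741 and 3079 CPM after treatment. Both treated libraries were higher for 8 of 8 tested airway genes, beside 27.4% of all tested genes. The 9 alveolar type 2 genes summed to 1811 and 545 CPM against 8394 and 3039 CPM. Of these 9, 7 were higher and 2 (Abca3 and Etv5) lower in both treated libraries, beside 27.4% and 27.8% of all tested genes. The 7 type 1 genes summed to 312 and 132 CPM against 878 and 431 CPM. The 7 T-cell genes summed to 45.4 and 16.8 CPM against 91.5 and 27.0 CPM, and the 7 endothelial genes to 519 and 409 CPM against 760 and 408 CPM, and both overlapped between groups. These lists were lowest in saline replicate 2, except the endothelial list, whose sums there and in treated replicate 2 were alike. The parts of lung tissue and tumour content in the values of Ear1, Ear2, Atp6v0d2, Mrc1, Chil3 and Plet1 were not tested. The 6 tumour epithelial genes summed to 2957 and 3346 CPM in saline and to 2647 and 3806 CPM after treatment and overlapped. Neutrophil genes, given because Chil3 is made by their precursors, summed to 2071 and 1112 CPM against 1412 and 2293 CPM, lowest in the library where Chil3 was highest, although the collagenase gene Mmp8 of that list was highest there, at 71.1 CPM beside 31.8, 15.4 and 27.4 CPM in saline replicate 1 and the treated libraries.

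**Figure D4:**
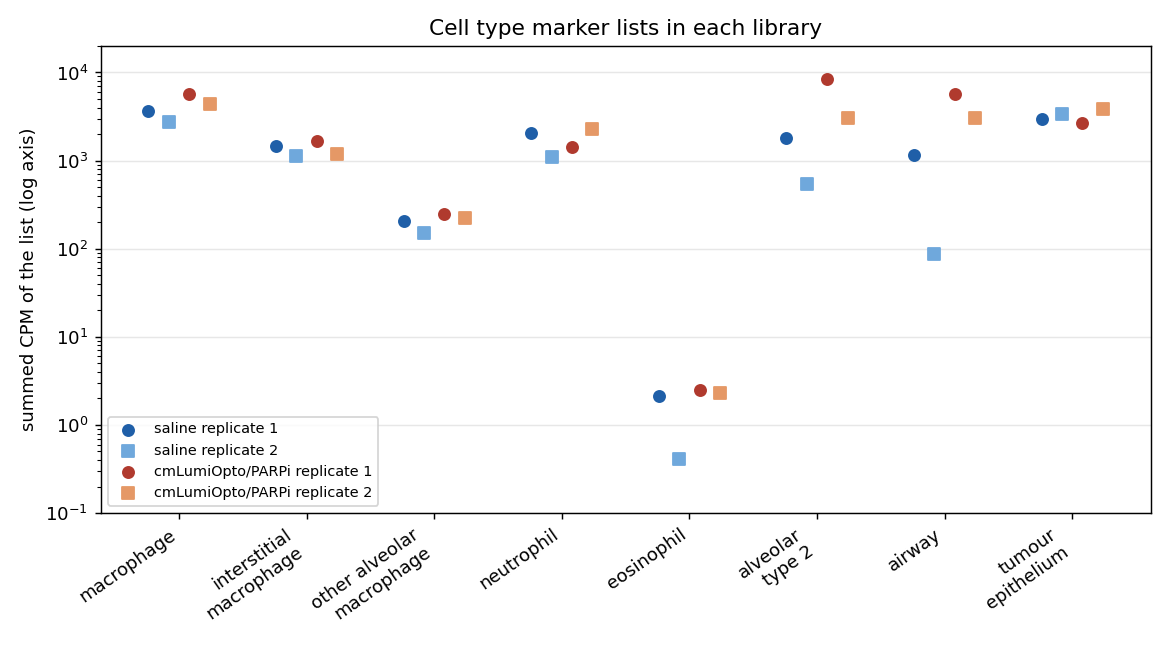
Summed CPM of marker lists in each library on a log axis; each point is a library. The airway and alveolar type 2 lists are higher in both treated libraries and lowest in saline replicate 2, at 86.2 and 545 CPM, while the tumour epithelial list overlaps between the groups. Most of the eosinophil sum is Siglecf, which alveolar macrophages share.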

How the data were processed

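Read counts per gene were deposited for 2 saline and 2 cmLumiOpto/PARPi libraries. The authors made these counts from reads mapped with HISAT2, and the counting tool is not given in the sources used here. The study's methods name GRCm38 and the submitters' processing notes name mm39. Positions of 2.83% of genes in the table equalled those of GENCODE M21 (GRCm38), so coordinates printed are those of GENCODE M21. The members and lists were chosen with earlier results of these data known.

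Counts were tested in edgeR 4.0.16 with R 4.3.3 (TMM, filterByExpr with minimum count 10, glmQLFit and glmQLFTest, Benjamini-Hochberg over 15167 genes, threshold 0.05). The standard error is the log2 fold change divided by the square root of F. On simulated counts the share of false calls exceeded the threshold of 0.05 in this test. That share was larger with DESeq2 and with the likelihood ratio test. Genes outside the set were named as at most 2 per list and direction by p among those whose groups did not overlap. Other genes named were chosen after their values were seen. Alternatives were DESeq2 1.42.0, the likelihood ratio test, RLE factors, the newer quasi-likelihood option, no filter, a replicate block and leaving out each library. Nothing in the labels says that libraries of a group came from separate mice, so p-values measure the spread between these libraries. Chi-square per degree of freedom between the libraries of a group was 25.2 in saline and 45.4 in treated, above counting noise, and each counts as 1 replicate. The list of interstitial macrophage and monocyte genes is not reported here.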

Additional observations from a re-analysis of the deposited data

How the results depend on the processing

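Across all tested genes, calls at an adjusted p under 0.05 numbered 0 in the reported test, 1011 with DESeq2, 865 with edgeR's likelihood ratio test, 2000 with no filter on low counts, and 0 to 31 with each library left out. Of the alveolar macrophage genes, 0 were called in the reported test and with each library left out, 2 with DESeq2, 2 with the likelihood ratio test (Atp6v0d2 and Mrc1 in both) and 4 with no filter (Chil3 and Ear2 in addition). RLE factors and the newer quasi-likelihood option left both counts at 0. With a library left out, the lone sample of its group is assumed to vary like the other group. Plet1 ranged from -0.85 to 0.13 and Marco from -3.30 to 1.56 on the log2 scale with each library left out, and the cause was not tested. DESeq2 gave Marco no adjusted p. The log2 ratio of summed CPM, -0.97, ranged from -1.46 to -0.21, the last without saline replicate 2.

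Adding the replicate number as a block called 1822 genes and 3 of the set (Atp6v0d2 higher, Mrc1 and Chil3 lower). Deviations of same-numbered libraries had a Spearman's rho of 0.298 over genes, which are no independent replicates, and the libraries share only a number in the labels. Depth limits Marco, Cidec, Krt79 and Fabp1 most, each at 31 counts or fewer per library.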
